A study of Mus musculus with 16 samples.

Results

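The circadian clock genes measured here are Nr1d1, Nr1d2, Per1, Per2, Per3, Dbp, Tef, Arntl, Clock and Cry1, in the lungs of newborn BALB/c mice after ozone. They were found as the probes, other than control probes, whose gene name or older synonym in the array files is one of these 10 symbols. That gave 20 of the 41174 probes of the array, and all 10 genes were among the 21631 genes kept for testing. All 20 probes were kept, and 19 of them were well above background on all 16 arrays, so low signal removed no clock gene. The remaining probe, 1 of 4 for Tef, was well above background on 11 arrays.

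Pups of the inbred BALB/c strain, aged 3 days, breathed ozone at 1000 ppb for 3 h, and age-matched littermates breathed filtered air for 3 h. All pups were with a foster dam while exposed. Whole lungs were taken at 6 h or 24 h after the end of exposure, which gave the groups ozone 6 h, air 6 h, ozone 24 h and air 24 h, each of 4 lungs from 4 mice picked at random from a larger group. The 2 times were run as separate experiments with their own air controls, no genotype was altered, and no label gives the hour of the day at which lungs were taken.

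The mammalian clock is a loop of transcription that runs in nearly every cell, lung cells included. CLOCK and ARNTL (BMAL1) pair on E-box sequences and switch on the Period and Cryptochrome genes, whose proteins return to block that pair. The same pair drives Nr1d1 and Nr1d2, which encode the repressors REV-ERBα and REV-ERBβ. These bind ROR elements, for instance those of Arntl, in competition with the activating ROR receptors. Dbp and Tef encode PAR bZIP factors that bind D-boxes and carry the rhythm to output genes. In the newborn rodent the rhythm of peripheral tissues is still maturing.

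Promoters of 9 of the 10 genes were found in the RefSeq table (14 promoters of 300 bases, from 250 bases before to 50 after the start, build GRCm38.p6), and both strands were searched for 4 motifs. The E-box CACGTG lay in promoters of Per1, Cry1 and Tef, against 7.15% of all 32851 promoters. The D-box, searched as TTATGTAA or TTACGTAA, occurred 2 times in Per3, against 1.06% of promoters with a D-box. The core of the ROR element, TAGGTCA, lay in 1 Arntl promoter, against 2.61%. The cyclic AMP response element TGACGTCA was in none of the 14, against 1.79%. Both Tef promoters held the E-box, and Tef differed by 0.02 between the times in air lungs. The promoter of Nr1d1, which was higher at 24 h, held none of the 4 motifs. The other promoters of Per1 and Arntl also held none. A link between motif and difference was not tested. The 4 promoters below were picked from genes that were higher at 24 h than at 6 h in air lungs, with the motif in capitals.
Per1 promoter, chr11:69098699-69098998, plus strand: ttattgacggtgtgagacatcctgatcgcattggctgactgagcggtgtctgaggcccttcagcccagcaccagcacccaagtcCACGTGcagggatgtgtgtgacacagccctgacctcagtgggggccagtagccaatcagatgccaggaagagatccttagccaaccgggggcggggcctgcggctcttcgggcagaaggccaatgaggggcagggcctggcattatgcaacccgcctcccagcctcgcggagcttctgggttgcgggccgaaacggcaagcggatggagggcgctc
Cry1 promoter, chr10:85185005-85185304, minus strand: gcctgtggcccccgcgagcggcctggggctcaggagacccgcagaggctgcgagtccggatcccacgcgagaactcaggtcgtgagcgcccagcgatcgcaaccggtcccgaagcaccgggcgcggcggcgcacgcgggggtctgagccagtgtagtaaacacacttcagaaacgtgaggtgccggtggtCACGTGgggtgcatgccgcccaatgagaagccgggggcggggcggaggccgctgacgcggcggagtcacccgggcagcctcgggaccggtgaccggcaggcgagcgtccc
Per3 promoter, chr4:151044616-151044915, minus strand: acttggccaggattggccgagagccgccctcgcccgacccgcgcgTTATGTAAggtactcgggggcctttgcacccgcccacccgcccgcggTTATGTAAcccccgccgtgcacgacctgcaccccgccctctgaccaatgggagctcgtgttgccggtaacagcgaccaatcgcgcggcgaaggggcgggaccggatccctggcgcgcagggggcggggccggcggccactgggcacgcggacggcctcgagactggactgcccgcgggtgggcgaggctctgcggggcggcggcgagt
Arntl promoter, chr7:113207261-113207560, plus strand: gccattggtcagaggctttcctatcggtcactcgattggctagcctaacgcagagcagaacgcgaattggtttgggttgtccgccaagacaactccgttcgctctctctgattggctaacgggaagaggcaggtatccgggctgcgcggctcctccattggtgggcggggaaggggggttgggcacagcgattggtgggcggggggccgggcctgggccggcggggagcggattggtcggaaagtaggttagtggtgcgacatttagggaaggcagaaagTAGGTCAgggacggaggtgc

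Sequences of 3 probes are shown because the results depend on which probe of a gene is read. Positions of probes are those of the array design on build mm9. The first Nr1d1 probe covers parts of a 503-base stretch, so it is split in the genome, while the other 2 probes are each unbroken over 60 bases.
Nr1d1 spliced probe, chr11:98630526-98631028, minus strand: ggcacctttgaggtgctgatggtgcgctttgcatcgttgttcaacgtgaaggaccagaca
Nr1d1 middle probe, chr11:98633332-98633391, minus strand: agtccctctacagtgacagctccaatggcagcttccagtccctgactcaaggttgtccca
Cry1 probe used, chr10:84606495-84606554, minus strand: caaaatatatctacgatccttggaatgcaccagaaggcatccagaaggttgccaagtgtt

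Values are log2 signal minus the 75th percentile of the same array, so 0 is the level of that percentile and 1 unit is a doubling. They are used to compare groups within a probe, since brightness cannot be set against that of another probe. A gene with several probes was read from its brightest probe by mean over the 16 arrays. Groups were compared with limma on all 16 arrays, differences are ozone minus air or 24 h minus 6 h with their standard error (SE), and a gene was called at a Benjamini-Hochberg adjusted p under 0.05 over all 21631 genes. On the 6 h arrays 65.0% to 72.4% of spots were well above background, apart from ozone 6 h replicate 3 at 83.9%. On the 24 h arrays the share was 74.6% to 81.0%. The 75th percentile of signal was 574 to 709 at 6 h and 690 to 946 at 24 h, and no spot was saturated. By mean signal, the probes used for Per3, Nr1d1 and Cry1 lay at percentiles 29.5, 31.9 and 33.0 of all genes tested. The part of these array differences in the comparisons between times was not tested. In whole lung, fewer cells of a type and less RNA per cell cannot be told apart. Markers of lung epithelium and endothelium had a summed log2 level of 9.56 to 10.05 over all lungs. Most of this summed signal was that of Sftpc, with group means of 9.09 to 9.51, so the sum shows little of endothelium. Brown fat markers varied most between lungs, with summed levels of -0.63 to 4.29 in ozone 24 h lungs and -1.07 to 0.02 in air 24 h lungs. At 6 h they were 0.14 to 0.91 in ozone lungs and -0.37 to 3.97 in air lungs. No brown fat gene was called in either ozone comparison. At 24 h the median difference of the 3 measured was 2.68, against 0.02 over all genes, and Cidea had an unadjusted p under 0.05. The summed log2 level of 4 of 4 thymus markers was -0.54 to 0.27 in ozone 24 h lungs and -1.05 to -0.78 in air 24 h lungs, and -1.15 to -0.35 in ozone 6 h lungs and -1.35 to -1.17 in air 6 h lungs. One of the 4, Cd8b1, a chain of the CD8 co-receptor, was called higher at 24 h, by 0.95 ± 0.20 (limma adjusted p = 0.0178), a call lost without air 24 h replicate 3 or 4 (differences 0.94 and 0.88). Of 3 erythroid markers measured, Klf1, which drives genes of red blood cell formation, was called lower at 24 h, at -2.57, -2.87, -3.23 and -2.79 in ozone lungs, against -2.19, -1.50, -2.03 and -1.78 in air lungs. Its difference was -0.99 ± 0.23 (limma adjusted p = 0.0304), and the Klf1 call was lost without ozone 24 h replicate 2, 3 or 4 and without air 24 h replicate 2, 3 or 4 (-1.04 to -0.86). The summed level of the 3 was 2.93 to 4.12 in ozone 24 h lungs and 2.50 to 3.94 in air 24 h lungs, and these ranges overlap. Over all genes, 2.01% were called at 24 h. The part of these markers in the clock gene results was not tested.

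The plot of the 10 genes by lung shows the values behind every comparison that follows.

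**Figure D1:**
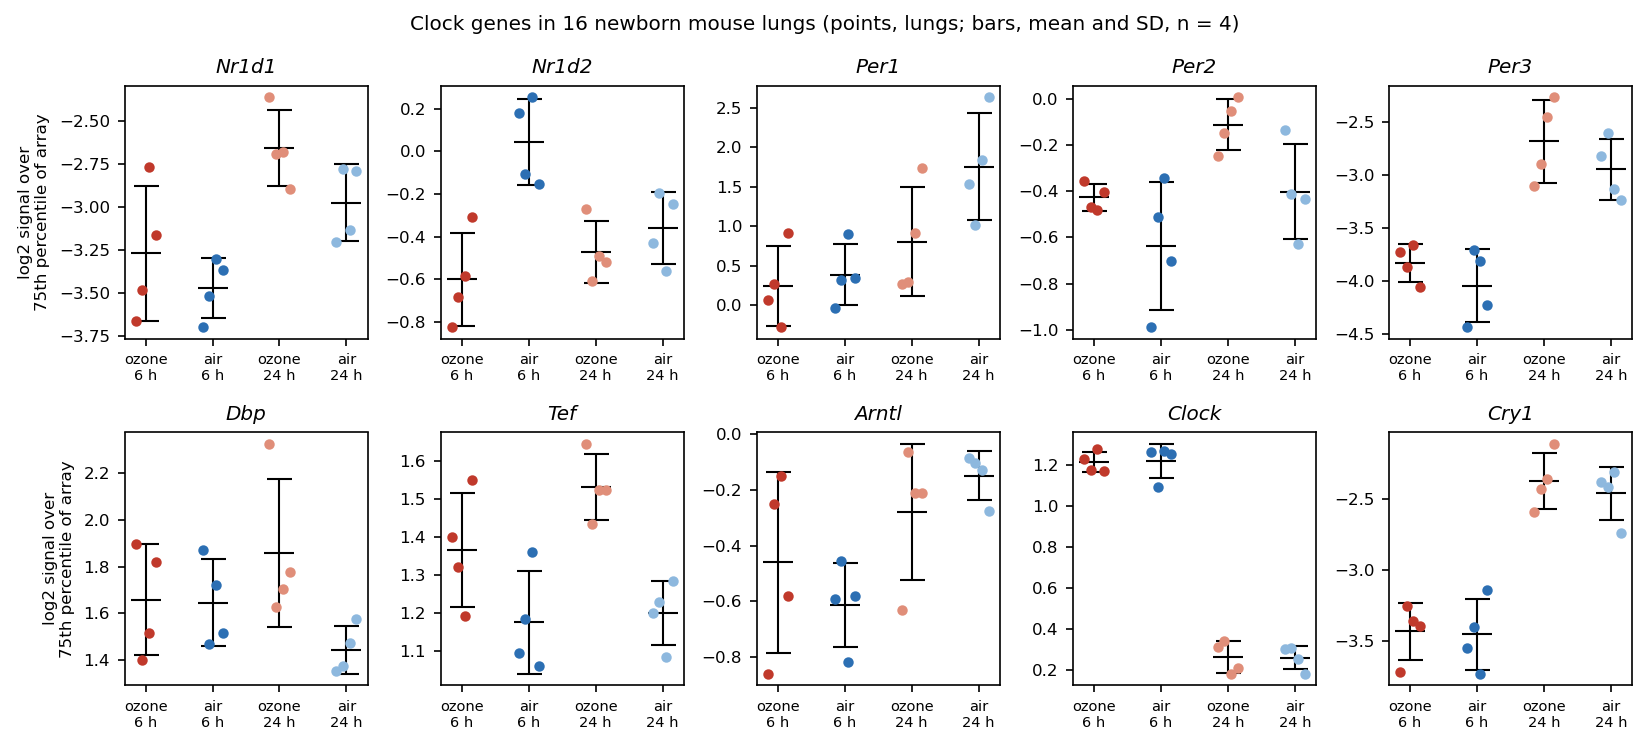
Log2 signal over the 75th percentile of the array for the 10 clock genes, with 1 point per lung in ozone 6 h, air 6 h, ozone 24 h and air 24 h (bars, mean and SD, n = 4). The axes differ between panels; Nr1d2 separates ozone 6 h from air 6 h, and Clock, Cry1 and Per3 separate the 2 times in ozone lungs and in air lungs.

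At 6 h after ozone, Nr1d2 was the one clock gene called. It was lower in ozone lungs, at 0.64 of the air level (95% interval 0.53 to 0.77). That is 1 of 10 clock genes called, against 4.48% of all genes called at 6 h and 3.11% called lower. At an unadjusted p under 0.05 there were Nr1d2 and Tef. The share of all genes at an unadjusted p under 0.05 was not counted at either time, so such counts have no background. The median difference of the 10 was 0.09, against 0.07 over all genes tested.

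Nr1d2 encodes REV-ERBβ, a repressor that shares the work of REV-ERBα in the clock. Its log2 signal was -0.82, -0.69, -0.58 and -0.31 in the 4 ozone 6 h lungs, against 0.18, -0.10, 0.25 and -0.15 in the 4 air 6 h lungs. Every ozone lung lay below every air lung, which 4.87% of all genes also showed in that direction. The difference was -0.64 ± 0.12 (SE, n = 4 a group, limma adjusted p = 0.00966). Each slide held 2 ozone and 2 air lungs of 1 time. Within the slide that held replicates 1 and 2 the difference for Nr1d2 was -0.79 (limma adjusted p = 0.114), and within the slide of replicates 3 and 4 it was -0.49 (limma adjusted p = 0.118). Slide as a block kept the call (limma adjusted p = 0.0121), and fitting only the 8 arrays of that time ended it (limma adjusted p = 0.0610). No gene of the lists of lung, erythroid, thymus, oesophagus, heart muscle, brown fat or neutrophil markers was called at 6 h. At an unadjusted p under 0.05 there were Sftpa1, Foxj1, Dntt, Krt4 and Krt13. The 3 oesophagus markers measured had a median difference of 1.12, against 0.07 over all genes, with Krt4 at 1.80 ± 0.67 and Krt13 at 0.54 ± 0.20. Their summed levels overlapped, at -0.67 to 0.43 in ozone 6 h lungs and -1.40 to 0.39 in air 6 h lungs. The part of these markers in the Nr1d2 difference was not tested.

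At 24 h Nr1d2 was at -0.27, -0.61, -0.49 and -0.52 in ozone lungs, against -0.43, -0.20, -0.56 and -0.25 in air lungs, and these groups overlap. The difference was -0.11 ± 0.12 (limma adjusted p = 0.817). The change in the ozone effect between the times, 24 h minus 6 h, was 0.53 ± 0.17 and was not called (limma adjusted p = 0.216), so the 6 h and 24 h effects are not shown to differ. No clock gene was called for that change in limma (0 of 10, against 0.0647% of all genes), and at an unadjusted p under 0.05 there was 1, Nr1d2.

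REV-ERBα, encoded by Nr1d1, is the partner repressor. The Nr1d1 probe used averaged -3.27 ± 0.39 in ozone 6 h lungs, -3.47 ± 0.18 in air 6 h lungs, -2.66 ± 0.22 in ozone 24 h lungs and -2.98 ± 0.22 in air 24 h lungs (SD, n = 4 each). Ozone differences were 0.20 ± 0.19 at 6 h (limma adjusted p = 0.552) and 0.32 ± 0.19 at 24 h (limma adjusted p = 0.517). On the probes used, the 2 REV-ERB genes thus had estimates of opposite sign at both times, and the difference between them was not tested. At 24 h this depended on processing, since with normexp background correction Nr1d1 was at -0.18 and Nr1d2 at -0.10.

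The spliced Nr1d1 probe printed above gave another picture at 24 h. It read -2.97, -3.42, -3.20 and -3.23 in ozone 24 h lungs, against -3.00, -2.61, -2.38 and -2.14 in air 24 h lungs. Ozone replicate 1 lay just above air replicate 1, the other ozone lungs lay below every air lung, and the difference was -0.67 ± 0.18 (limma adjusted p = 0.0786 over all probes). The middle probe gave 0.09 ± 0.26. At 6 h the spliced probe gave 0.06 ± 0.18 and the middle probe 0.22 ± 0.26, neither called. In the RefSeq gene table, the span of Nr1d1 overlaps that of Thra, a thyroid hormone receptor gene. The spans of Per2, Per3, Dbp, Arntl and Clock overlap other annotated genes too, and the part of overlap in the probe values was not tested.

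At 24 h no clock gene was called (0 of 10), against 2.01% of all genes called in limma. At an unadjusted p under 0.05 there were 4, namely Per1, Per2, Dbp and Tef, with no share of all genes counted at that level. The median difference of the 10 genes was 0.18, against 0.02 over all genes, and 7 of 10 estimates were above 0, against 54.9% of all genes. With normexp background correction, Nr1d1, Per3 and Cry1 turned to estimates below 0 at 24 h.

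Tef and Dbp, the 2 PAR bZIP genes, came nearest to a call on the higher side. Tef was at 1.65, 1.43, 1.53 and 1.52 in ozone 24 h lungs, against 1.20, 1.23, 1.08 and 1.28 in air 24 h lungs. Dbp was at 2.32, 1.63, 1.71 and 1.78 in ozone 24 h lungs, against 1.35, 1.38, 1.48 and 1.58 in air 24 h lungs. In both genes every ozone lung lay above every air lung, as did 6.8% of all genes.

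The Tef difference was 0.33 ± 0.08 (limma adjusted p = 0.0531), a ratio of 1.26 with a 95% interval of 1.11 to 1.43. Tef differed by 0.32 within the slide of replicates 1 and 2 and by 0.34 within that of replicates 3 and 4. The Dbp difference was 0.41 ± 0.14 (limma adjusted p = 0.169), and it was 0.61 and 0.22 within the same slides. Both genes were called with normexp background correction (Tef 0.40, limma adjusted p = 0.0112; Dbp 0.47, limma adjusted p = 0.0326) and with array weights. A fit of the 24 h arrays alone also called Tef (limma adjusted p = 0.0319), as did fits without ozone 6 h replicate 3 or 4 or without air 6 h replicate 3. Of 14 alternative settings, 4 called Tef and 2 called Dbp. Neither gene was called within a slide (limma adjusted p = 0.293 and 0.450 for Tef, 0.222 and 0.952 for Dbp).

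At 6 h Tef differed by 0.19 ± 0.08 (limma adjusted p = 0.209) and Dbp by 0.01 ± 0.14 (limma adjusted p = 0.967), and ozone and air values overlapped in both. The other 3 Tef probes gave 0.27, 0.29 and -0.03 at 24 h, and 0.44, 0.40 and 0.33 at 6 h, none called.

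Per1 encodes a repressor of the loop that is also switched on quickly by glucocorticoids and by cyclic AMP signals. It had the widest spread of the 10 genes between lungs of a group. Per1 was at 0.27, 0.30, 0.91 and 1.74 in ozone 24 h lungs, against 1.53, 1.01, 1.84 and 2.63 in air 24 h lungs. Ozone replicate 4 lay among the air lungs, so the groups overlap. The difference was -0.95 ± 0.35 and was not called (limma adjusted p = 0.204, 95% interval -1.68 to -0.22). It was -0.99 within the slide of replicates 1 and 2 and -0.91 within that of replicates 3 and 4. At 6 h Per1 was at 0.06, 0.27, -0.28 and 0.92 in ozone lungs, against -0.03, 0.32, 0.90 and 0.34 in air lungs, with a difference of -0.14 ± 0.35.

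Per2 and Per3 are the other Period genes. Per2 averaged -0.11 ± 0.11 in ozone 24 h lungs and -0.40 ± 0.20 in air 24 h lungs (SD, n = 4 each), a difference of 0.29 ± 0.12 (limma adjusted p = 0.293). At 6 h Per2 averaged -0.43 ± 0.06 in ozone lungs and -0.64 ± 0.28 in air lungs, a difference of 0.21 ± 0.12 (limma adjusted p = 0.340). A second Per2 probe differed by 0.47 ± 0.31 at 6 h and by 0.07 ± 0.31 at 24 h, neither called. Per3 differed by 0.21 ± 0.21 at 6 h and by 0.27 ± 0.21 at 24 h, neither of them called.

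On the probes used, the activators were close to the air level. Clock, whose protein is the partner of ARNTL, differed by -0.00 at 6 h, with a 95% interval of -0.14 to 0.13, and by 0.00 at 24 h, with an interval of -0.14 to 0.14. Arntl differed by 0.15 ± 0.14 at 6 h and by -0.13 ± 0.14 at 24 h, with intervals of -0.15 to 0.45 and -0.43 to 0.17. Cry1, which encodes a repressor that works with the Period proteins, differed by 0.02 ± 0.16 at 6 h, with an interval of -0.31 to 0.35, and by 0.09 ± 0.16 at 24 h, with an interval of -0.24 to 0.42. Shifts inside these intervals were not detectable with 4 lungs a group. The other Cry1 probe differed by 0.54 ± 0.23 at 6 h and by 0.22 ± 0.23 at 24 h. Neither was called (limma adjusted p = 0.205 and 0.831 over all probes). At 6 h the Clock probes beside the used one differed by 0.11, 0.25 and -0.03. At 24 h they differed by -0.07, 0.14 and -0.33, and none was called at either time.

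**Figure D2:**
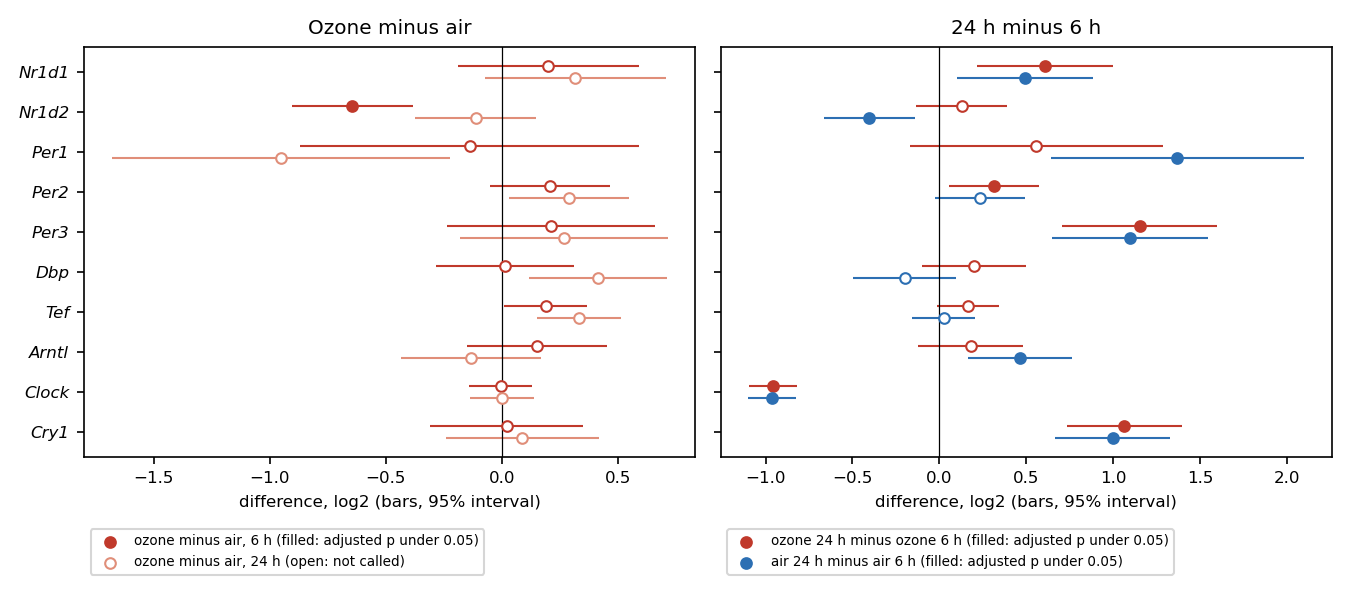
Differences in log2 signal for the 10 genes, ozone minus air at 6 h and 24 h (left) and 24 h minus 6 h in ozone and air lungs (right), with 95% intervals from limma (n = 4 a group). Filled points were called; on the left only Nr1d2 at 6 h is filled, at -0.64.

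The air lungs of the 2 times were set against each other. Time after exposure, age, separate experiment, array slide and scan run all differ together between these groups and cannot be told apart. The hour of day at which lungs were taken is not labelled, may also differ, and cannot be told apart from these. Between air 24 h and air 6 h lungs, 7 of the 10 clock genes were called, against 49.9% of all genes. Of these, 5 were higher at 24 h, as were 21.4% of all genes, and 2 were lower, as were 28.5%. In 7 of 10 the 4 lungs of 24 h did not overlap the 4 of 6 h, as in 48.9% of all genes. The same contrast in ozone lungs called 5 of 10, against 46.3% of all genes. Of these, 4 were higher, against 19% of all genes, and 1 was lower, against 27.3%, and in 4 of 10 the times did not overlap, against 41.4%.

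Clock fell by 24 h. It was at 0.31, 0.34, 0.18 and 0.21 in ozone 24 h lungs, against 1.23, 1.18, 1.28 and 1.17 in ozone 6 h lungs. In air it was at 0.30, 0.30, 0.25 and 0.18 at 24 h, against 1.26, 1.095, 1.27 and 1.25 at 6 h. The 2 times did not overlap, and the differences were -0.96 ± 0.06 in ozone lungs and -0.96 ± 0.06 in air lungs (limma adjusted p = 4.16e-08 and 1.88e-08).

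Arntl was higher at 24 h in air lungs, by 0.46 ± 0.14 (limma adjusted p = 0.0117), and differed by 0.18 ± 0.14 in ozone lungs (limma adjusted p = 0.328). The 2 genes of the activating pair thus had estimates of opposite sign between the times.

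Cry1 was at -2.59, -2.43, -2.36 and -2.11 in ozone 24 h lungs, against -3.72, -3.26, -3.36 and -3.40 in ozone 6 h lungs, a difference of 1.06 ± 0.16. In air lungs Cry1 was at -2.38, -2.41, -2.31 and -2.74 at 24 h, against -3.55, -3.40, -3.73 and -3.14 at 6 h, a difference of 1.00 ± 0.16. Per3 was higher at 24 h by 1.15 ± 0.21 in ozone lungs and by 1.099 ± 0.21 in air lungs. All 4 differences were called in limma, and the times did not overlap in either gene. With normexp background correction both calls in ozone lungs were lost, with Per3 at 0.35 (limma adjusted p = 0.176) and Cry1 at 0.28 (limma adjusted p = 0.279).

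Per1 was higher at 24 h in air lungs, by 1.37 ± 0.35 (limma adjusted p = 0.00302), with all 4 air 24 h lungs above all 4 air 6 h lungs. In ozone lungs it differed by 0.56 ± 0.35 (limma adjusted p = 0.205). Whether these 2 differ is the change in the Per1 ozone effect between the times, -0.81 ± 0.49, which was not called (limma adjusted p = 0.514).

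Nr1d2 was lower at 24 h in air lungs, by -0.40 ± 0.12 (limma adjusted p = 0.0116), and differed by 0.13 ± 0.12 in ozone lungs (limma adjusted p = 0.427). Nr1d1 was higher at 24 h by 0.61 ± 0.19 in ozone lungs and by 0.49 ± 0.19 in air lungs (limma adjusted p = 0.0119 and 0.0348). The Nr1d1 call in air lungs was lost without air 6 h replicate 1 or 2 and without air 24 h replicate 2 or 4, with differences of 0.42 to 0.48. With normexp the Nr1d1 difference was 0.11 in ozone lungs and 0.55 in air lungs, neither called (limma adjusted p = 0.702 and 0.0651).

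Per2 was called higher at 24 h in ozone lungs, by 0.32 ± 0.12 (limma adjusted p = 0.0427), and differed by 0.23 ± 0.12 in air lungs. The Per2 call was lost without any 1 of the ozone lungs apart from ozone 24 h replicate 1, and without air 6 h replicate 4 or air 24 h replicate 2 or 4, with differences of 0.28 to 0.34. Dbp and Tef were called between the times in neither exposure, with Dbp at 0.20 ± 0.14 in ozone and -0.20 ± 0.14 in air lungs and Tef at 0.17 ± 0.08 and 0.02 ± 0.08.

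Several of these differences between times were not seen on every probe of the gene. For Clock, the probe used fell by 0.96 in air lungs at 24 h, and the other 3 probes differed by -0.37, -0.26 and -0.12, none called (limma adjusted p = 0.0829, 0.254 and 0.572 over all probes). In ozone lungs the Clock probes beside the used one differed by -0.67, -0.37 and -0.31, of which the first was called (limma adjusted p = 0.00393). All 4 had the same sign in both exposures.

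The Cry1 probe printed above gave the difference of 1.00 in air lungs, while the other Cry1 probe, at chr10:84594731-84594790, gave 0.01 ± 0.23. In ozone lungs that second probe differed by -0.31 ± 0.23. The rise of Cry1 thus rests on 1 of 2 probes.

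For Nr1d1 the spliced probe rose by 0.93 ± 0.18 in ozone lungs and by 1.67 ± 0.18 in air lungs, against 0.61 in ozone lungs and 0.49 in air lungs on the probe used. The middle Nr1d1 probe differed by 0.26 ± 0.26 in ozone lungs and by 0.40 ± 0.26 in air lungs, neither called (limma adjusted p = 0.445 and 0.224). The second Per2 probe differed by -0.04 ± 0.31 in ozone lungs and by 0.36 ± 0.31 in air lungs, not called (limma adjusted p = 0.933 and 0.354), and the mean of both Per2 probes by 0.14 in ozone lungs (limma adjusted p = 0.575). For Tef 1 of the 3 other probes was called in both exposures, at 0.51 ± 0.14 in ozone lungs and 0.68 ± 0.14 in air lungs. Nr1d2, Per1, Per3, Dbp and Arntl each have a single probe, so no second reading exists for them here.

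**Figure D3:**
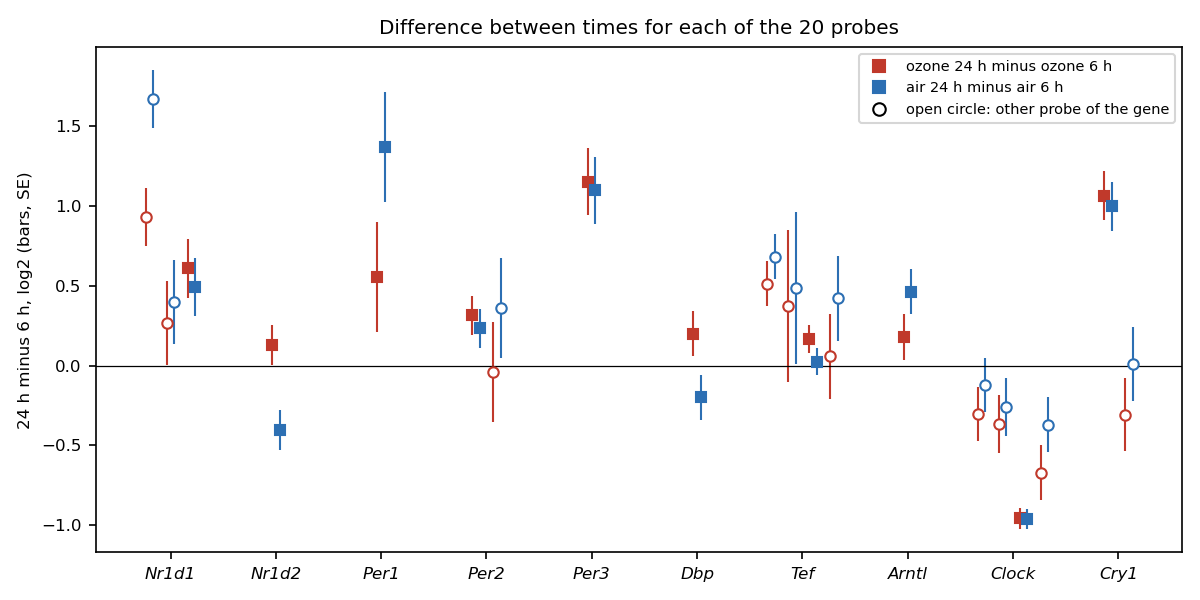
The difference 24 h minus 6 h in log2 signal for each of the 20 probes, in ozone lungs and in air lungs (bars, SE, n = 4 a group); squares mark the probe used for the gene and open circles its other probes. Clock probes all lie below 0. The Cry1 probes differ in sign in ozone lungs and in size in air lungs, and the Nr1d1 probes differ in size.

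Beyond the 10 genes, lists of clock-linked genes were read. Of other clock regulators, 8 are described here, and in limma none of these was called in either ozone comparison, with Bhlhe40 alone at an unadjusted p under 0.05, at 24 h. Hlf, the third PAR bZIP gene, differed by 0.28 ± 0.15 at 6 h and by 0.27 ± 0.15 at 24 h. Bhlhe40, which encodes a repressor at E-boxes, differed by 0.02 ± 0.10 and by -0.26 ± 0.10. Between the times, Hlf, Bhlhe40, Cry2 and Rora were called higher at 24 h and Ciart, a repressor known as CHRONO, lower, in ozone lungs and in air lungs. Of all genes, 19% were called higher and 27.3% lower in ozone lungs, and 21.4% and 28.5% in air lungs. Hlf differed by 0.91 ± 0.15 in ozone lungs and by 0.92 ± 0.15 in air lungs, and Ciart by -0.73 ± 0.18 and -0.72 ± 0.18.

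None of 9 kinases, ubiquitin ligases and partners that act on clock proteins was called after ozone at either time in limma, and the median of the list was 0.15 for 6 h and -0.03 for 24 h. At an unadjusted p under 0.05 there was 1 at 6 h, Timeless, and there were 2 at 24 h, Timeless and Gsk3b. Timeless, which works mainly at replication forks in mammals, had the smallest p at both times, at -0.25 ± 0.09 in each. Csnk1d and Csnk1e, kinases that phosphorylate Period proteins, differed by 0.19 ± 0.10 and 0.15 ± 0.09 at 6 h.

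Of 7 output genes that cycle in many tissues, Lonrf3 was called higher in ozone lungs at 6 h. None was called at 24 h in limma, where 3 had an unadjusted p under 0.05. Over all genes, 4.48% were called at 6 h and 2.01% at 24 h. Lonrf3 was at 0.42, 0.14, 0.27 and 0.12 in ozone 6 h lungs, against -0.17, -0.77, -0.70 and -0.33 in air 6 h lungs. All ozone lungs lay above all air lungs, as in 4.61% of all genes, and the difference was 0.73 ± 0.13 (limma adjusted p = 0.0063). A second Lonrf3 probe differed by 0.70. Usp2, a ubiquitin protease, differed by 0.36 ± 0.12 at 6 h and by -0.27 ± 0.12 at 24 h, and Nampt, the enzyme that limits NAD salvage, by -0.25 ± 0.09 and 0.09 ± 0.09, none of them called.

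**Figure D4:**
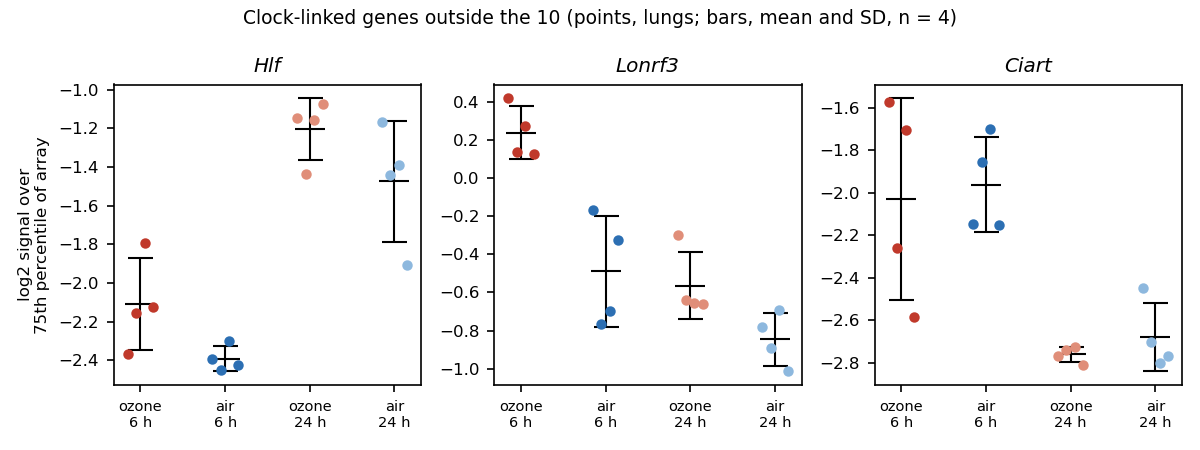
Log2 signal over the 75th percentile of the array for Hlf, Lonrf3 and Ciart, with 1 point per lung (bars, mean and SD, n = 4). Hlf is higher and Ciart lower at 24 h than at 6 h in both exposures, and Lonrf3 at 6 h lies higher in ozone lungs than in air lungs (difference 0.73).

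Per1 answers to glucocorticoids, so a list of glucocorticoid-responsive genes was read beside it (7 of 8 measured, Zbtb16 not). At 24 h, 1 of 7 was called, against 2.01% of all genes. It was Sgk1, a kinase that regulates sodium transport. Sgk1 was at 4.51, 4.79, 5.18 and 5.05 in ozone 24 h lungs, against 5.43, 5.37, 5.48 and 5.59 in air 24 h lungs, with a difference of -0.59 ± 0.13 (limma adjusted p = 0.0212). All ozone lungs lay below all air lungs, as in 4.96% of all genes. The Sgk1 call was lost without ozone 24 h replicate 1 or 2 and without air 24 h replicate 1, 3 or 4, with differences of -0.60 to -0.46. Klf9 and Errfi1, both targets of the glucocorticoid receptor, differed by -0.44 ± 0.17 and -0.46 ± 0.17, not called. Tsc22d3 (GILZ), a classical target, differed by 0.28 ± 0.12, so the list did not share 1 sign. Its median at 24 h was -0.39, against 0.02 over all genes.

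Errfi1 and Klf9 were also among the 5 genes whose profile over the 16 arrays was closest to that of Per1. Closeness was the root mean square difference in log2 after centring each gene, which was 0.370 for Csrnp1, 0.414 for Errfi1, 0.434 for Atf3, 0.452 for Klf9 and 0.453 for Pim3, against 0.774 for Per1 itself around its mean. In Errfi1 and Klf9, as in Per1, replicate 4 was the highest of the 4 lungs in ozone 24 h and in air 24 h. Closeness was measured on these same lungs, so this shared order is part of it and not a further observation. Errfi1 was at 3.23, 3.53, 3.77 and 4.12 in ozone 24 h lungs, against 4.09, 3.90, 4.01 and 4.50 in air 24 h lungs.

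At 6 h the glucocorticoid list had Dusp1 called, a phosphatase of MAP kinases, at -0.80 ± 0.20 (limma adjusted p = 0.0334). That is 1 of 7 in the list, against 4.48% of all genes. The Dusp1 call was lost without ozone 6 h replicate 1, 2 or 3 and without air 6 h replicate 3 or 4, with differences of -0.78 to -0.66. Between the times Dusp1 was higher at 24 h by 1.32 ± 0.20 in ozone lungs and by 0.71 ± 0.20 in air lungs. Klf9 and Sgk1 were called higher at 24 h in air lungs (0.94 ± 0.17 and 0.55 ± 0.13), and in ozone lungs they differed by 0.30 ± 0.17 and 0.18 ± 0.13. The changes of their ozone effects between the times were not called.

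**Figure D5:**
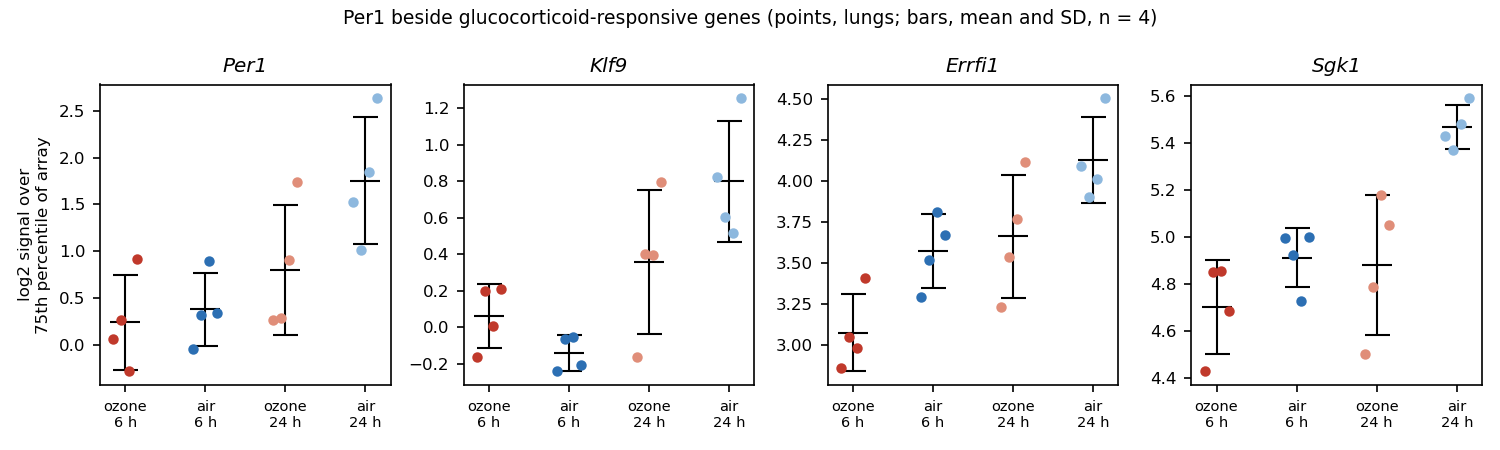
Log2 signal over the 75th percentile of the array for Per1 and 3 glucocorticoid-responsive genes, with 1 point per lung (bars, mean and SD, n = 4). At 24 h the 4 ozone lungs lie below the 4 air lungs in Sgk1 and overlap them in Per1, Klf9 and Errfi1.

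Immediate early genes, which Per1 can follow, were called in neither ozone comparison in limma (0 of 7 at each time, with 1 at 6 h and 2 at 24 h at an unadjusted p under 0.05). Between the times 5 of 7, namely Fos, Egr1, Ier2, Nr4a1 and Atf3, were higher at 24 h in ozone lungs and in air lungs, against 19% of all genes in ozone lungs and 21.4% in air lungs, with Fos at 1.72 ± 0.22 in ozone lungs and 1.63 ± 0.22 in air lungs. The mean of the Ier2 probes gave 0.24 in ozone lungs and 0.10 in air lungs, neither called. Per1 was called between the times in air lungs and not in ozone lungs, and the part of these genes in the Per1 result was not tested. Of 7 temperature-linked genes, 2 were called at 6 h, against 4.48% of all genes. These were Hspa1a and Hspa1b, near-identical copies of the inducible HSP70 that 1 probe may not separate. Both were higher in ozone lungs, by 0.67 ± 0.12 and 0.56 ± 0.14 (limma adjusted p = 0.00711 and 0.0357). The other 5 were not called at 6 h, and 4 of these had estimates below 0, with Hsp90aa1 at -0.38 ± 0.11, Hsph1 at -0.28 ± 0.09, Rbm3 at -0.26 ± 0.12 and Hspa8 at -0.16 ± 0.08. All 7 had an unadjusted p under 0.05 at 6 h, with no share of all genes counted at that level. The median of the list was -0.16, against 0.07 over all genes. The Hspa1b call was lost without ozone 6 h replicate 2 or 3 and without air 6 h replicate 3 or 4, with differences of 0.47 to 0.51. Cirbp, a cold-inducible protein that modulates clock output, differed by 0.24 ± 0.11 at 6 h and by 0.29 ± 0.11 at 24 h, not called. Rbm3, another cold-inducible gene, was lower at 24 h than at 6 h, by -0.75 ± 0.12 in ozone lungs and by -0.91 ± 0.12 in air lungs.

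For Dbp, Arntl and Nr1d1 the closest profiles over the 16 arrays were named by the same measure. The 5 nearest to Dbp were Sp110, Bex2, Uba7, Zfp691 and Tspan4, at 0.126 to 0.151, against 0.243 for Dbp around its own mean. The 5 nearest to Arntl were Tfe3, Atp6v0d1, Ankle2, Arid1a and Pttg1ip, at 0.116 to 0.126, against 0.260. Those nearest to Nr1d1 were Otos, Acot4, Olfr930, Gstp3 and Prss3, at 0.131 to 0.142, against 0.383.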

How the data were processed

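Whole-lung RNA of 16 mice was primed with oligo(dT) and labelled with Cy3, per the labels' protocols. The deposited scanner files hold intensity values that Agilent Feature Extraction 10.7.1.1, per the file headers, had background-subtracted but not scaled between arrays. Flags for detection are other deposited values in the same files. The authors' deposited log2 table was used only as an alternative. The filter kept 32343 probes, those detected over background on 4 or more of the 16 arrays, and 157 with an uneven spot were left out. The fit used limma 3.58.1 (R 4.3.3), and all adjusted p-values are limma's, two-sided. The number of arrays limits precision (median SE 0.13 log2). The fit was tested on simulated data. Slides 1 and 2 held 6 h lungs and slides 3 and 4 held 24 h lungs. Gene names came from the accession (25097 probes), symbol (6333), synonym (1640) or file (8104).

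The 10 members, the gene lists and the rule for names were chosen with earlier results of these data known. That rule names all members, up to 4 genes of a list with the smallest p in a contrast, and the 5 closest profiles of 4 members. Other genes of a list that the text names were picked after their values were seen. One item of the gene lists is not reported here.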

Additional observations from a re-analysis of the deposited data

Results flagged for a closer look

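Clock in air 6 h replicate 2 was at 1.095, and the other 3 air 6 h lungs were at 1.25 to 1.27, so the gap took up more of the group's range than the 95% critical value for 4 samples allows. It was 1 of 40 groups of clock gene values examined in this way, and chance flags about 1 in 20. The fall of Clock by 24 h in air lungs was called in 16 of 16 fits that each left out 1 lung, and its direction was the same in each.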

How the results depend on the processing

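With 4 lungs a group, small shifts are not resolved, 10 of the 20 probes are second readings of a gene, and no setting separates time from run and slide. The count of clock genes called at 6 h, 1 in the values reported, was 0 with only the 8 arrays of that time, within each slide and with a replicate block, and 2 with array weights. At 24 h it was 2 with normexp and with array weights, and 1 with a filter for detection on all arrays and with only 8 arrays, against 0. In ozone lungs between the times it was 2 with normexp and 3 with the mean of a gene's probes, against 5. Leaving out 1 lung at a time gave 1 to 1 at 6 h, 0 to 1 at 24 h, 6 to 8 in air and 4 to 5 in ozone lungs between the times, and 0 to 0 for the change of effects. Over all genes, the 968 called at 6 h ran from 196 (without air 6 h replicate 4) to 1687 (without air 6 h replicate 2) when 1 lung was left out, and were 100 with only 8 arrays, 53 within the slide of replicates 1 and 2, 247 with the replicate block, 558 with Xist added to the fit and 1814 with array weights. The 435 at 24 h ran from 263 (without air 24 h replicate 1) to 530, and were 47 and 255 within slides, 261 with the block, 245 with Xist and 1738 with weights. The 14 for the change of effects ran from 0 to 263 (without air 6 h replicate 2), and were 536 with normexp, 37 with quantile normalization, 6 with slide as a fixed block, 1 with the replicate block and 441 with weights. The cause of these shifts was not tested. Normexp moved the median of all genes to 0.14 at 6 h, -0.13 at 24 h, 0.20 in air and -0.28 in ozone lungs between the times.

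Replicate numbers are shared by ozone and air lungs, but the correlation of same-numbered deviations was 0.05, 0.14, 0.11 and 0.14 at 6 h and 0.20, 0.15, 0.11 and -0.01 at 24 h, and 3 of 8 lungs correlated best with their own number, so the lungs share only a number. With the replicate block the Nr1d2 difference at 6 h stayed at -0.64 (limma adjusted p = 0.0524). The sign of a difference between times reversed in 6 cases: Hsp90aa1 in ozone lungs to 0.0167 with quantile normalization, Nampt in air lungs to 0.0141 with the mean of probes, Usp2 in ozone lungs to -0.017 with normexp and -0.34 with the mean of probes, Rag1 in air lungs to 0.25 with normexp, and Wee1 in ozone lungs to -0.20 with normexp. The cause was not tested. Of 1242 values under the alternatives 1117 kept their direction and side of the threshold, as did 1693 of 1808 with 1 lung left out.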
